A study of Mus musculus with 20 samples.

Results

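The matrix metalloproteinases (MMP), the ADAMTS and ADAMTS-like proteins, and the tissue inhibitors of metalloproteinases (TIMP) were examined in the cecum of mice fed raw potato starch (RPS). All protein-coding genes whose GENCODE mouse symbol begins with Mmp or Timp and a digit, or with Adamts, were taken, which gave 49 of the 19887 genes in the table. They were 21 genes with an Mmp symbol, 19 Adamts genes, 5 Adamtsl genes, and 4 Timp genes. Mmp24os1 was taken in by its symbol only, since it lies on the strand opposite Mmp24 and encodes no metalloproteinase. Mmp1a, Mmp1b, and Mmp21 were not analysed here. The 20 mice were C57BL/6, an inbred strain, bred in-house and with no altered allele named in the labels, and all ate the Total Western Diet (TWD), whose nutrients follow American survey intakes, for 6 weeks after weaning. For 3 more weeks 5 mice each then ate the TWD with 0, 2, 5, or 10% RPS. The mice had been weaned at an age of 3 to 4 weeks, and the labels do not give their sex. No mouse was without the TWD, so the values describe RPS on that diet only. RNA came from a section of cecum tissue, and in such bulk RNA fewer cells of a type and less RNA per cell cannot be told apart.

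MMPs are zinc endopeptidases that are made as inactive proenzymes and, once cut, degrade collagens, proteoglycans, and other matrix and cell surface proteins. Most are secreted, and the membrane-type MMPs stay anchored at the cell surface. ADAMTS proteases carry thrombospondin repeats that bind them to the matrix, where some cleave proteoglycans such as versican and others remove the propeptides of collagens. ADAMTS-like proteins share these repeats but lack the protease domain, and TIMPs bind the active site of MMPs and block it. In the gut this balance shapes the matrix under the epithelium, and stromelysins and collagenases are known for their increase in inflamed or wounded mucosa.

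Total counts were between 14967798 and 42687283 per mouse, so that a floor of 3 counts stood at 0.20 CPM, the counts scaled to library size, in the shallowest library. Levels within a gene are given as CPM with TMM scaling, and levels between genes as RPKM, which divides CPM by the length of the gene's exons. The tissue label was checked with 8 epithelial markers, whose summed level was between 9510 and 14900 CPM in all mice. These are markers of intestinal epithelium and cannot tell cecum from colon. Of the 49 genes, 44 passed the filter on low counts and were tested with 15348 genes in all. The others were Mmp7 with at most 4 counts in a mouse, Mmp8 with 4, Mmp20 with 6, Mmp27 with 4, and Timp4 with 10. Mmp7 activates defensins in Paneth cells of the mouse small intestine, Mmp8 is the collagenase of neutrophils, and Mmp20 is the protease of tooth enamel. Mmp7 had 26 counts in all 20 mice together.

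The MMP RNA of the cecum was mainly that of 1 membrane-type enzyme. Mmp15, at chr8:96078895-96101708 (GRCm39), had a mean level of 43.2 RPKM (SD 8.82, n = 20), which was 61.9% of the summed RPKM of 20 MMP genes and between 55.5 and 71.7% of it in each mouse. Timp2, an inhibitor that also helps Mmp14 to activate the proenzyme of Mmp2, followed with 15 RPKM (SD 2.32). Mmp14 itself, a membrane-type collagenase, had 9.47 RPKM (SD 1.15), and Mmp2, a gelatinase made mostly by fibroblasts, had 7.48 RPKM (SD 1.45). The ranges of Timp2, from 11.4 to 20.9 RPKM, and of Mmp14 and Mmp2 did not reach that of Mmp15, from 34.0 to 64.9 RPKM. Between Mmp14, at 7.56 to 11.9 RPKM, and Mmp2, at 5.68 to 11 RPKM, the ranges overlapped.

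Below them, Adamtsl4 and Adamtsl5, of which Adamtsl4 binds fibrillin microfibrils, had mean levels of 4.82 (SD 1.10) and 4.72 RPKM (SD 0.914) and could not be put in order. Mmp24os1 had 4.18 RPKM (SD 0.937), and Adamts18 had 2.56 RPKM (SD 0.729), the highest mean of the ADAMTS proteases. Adamts1 had 1.56 RPKM (SD 0.826) and Adamts8 had 1.51 RPKM (SD 0.446), a difference within their spread. Timp1 and Timp3 had only 0.236 and 0.180 RPKM, so that Timp2 held most of the TIMP RNA. Timp1 lies inside Syn1, Timp3 inside Syn3, and Timp4 inside Syn2, each on the other strand, and Timp3 shares 1734 and Timp4 1142 exon bases with those genes. Whether strand was used in counting is not given in the sources used here, so the values of Timp3 and Timp4, and of Mmp24 and Mmp24os1, which share 698 exon bases, are uncertain. The same holds for Mmp19, which lies inside Tmem198b and shares 1084 exon bases with it, and for Mmp28, which shares 969 exon bases with 1700020L24Rik, both on the other strand.

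**Figure D1:**
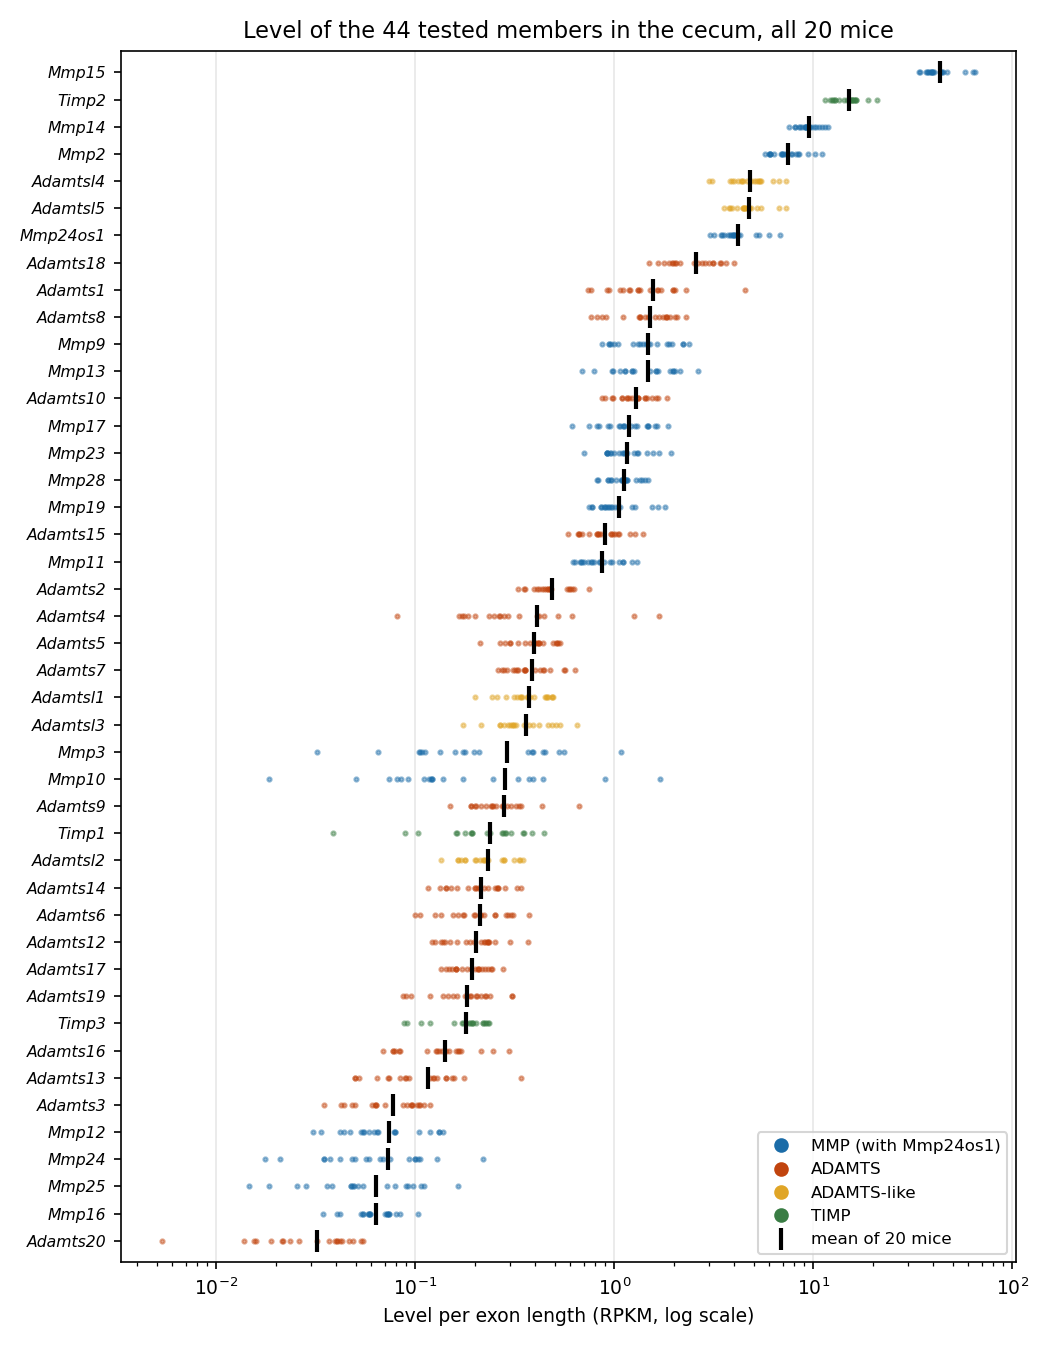
Level of each of the 44 tested genes in RPKM on a log scale, with 1 point per mouse, colored by family, and the mean of the 20 mice as a black bar. Mmp15 stands at the top with 43.2 RPKM, followed by Timp2 with 15 and Mmp14 with 9.47 RPKM.

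The summed level of each family differed little between diets. The 20 MMP genes summed to 72.8 (SD 9.56), 68.3 (SD 12.5), 72.0 (SD 13.5), and 64.4 RPKM (SD 5.46, n = 5 each) in mice fed 0, 2, 5, and 10% RPS. The 19 ADAMTS genes summed to 10.9, 10.8, 11.7, and 11.1 RPKM, and the 5 ADAMTS-like genes to 9.61, 10.7, 11.2, and 10.5 RPKM. The 4 TIMP genes summed to 15.2, 15.1, 16.0, and 15.2 RPKM in the same order. In each family the ranges of the 4 diets overlapped, and these sums were not tested.

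The first comparison asked which of these genes differed between mice fed 10 and 0% RPS. By edgeR's quasi-likelihood test 0 of the 44 genes passed an adjusted p of 0.05 with a fold change of at least 1.5, and 1.04% of all genes did. At an unadjusted p under 0.05 there were 9 of the 44 genes (20.5%), against 19.5% of all genes, so their share was near the background. Of these, 5 had a higher and 4 a lower mean at 10% RPS, and of all genes 9.74 and 9.75% did. The median log2 fold change was 0.10 for the 44 genes and 0.00 for all genes. DESeq2's Wald test called 2, Adamts1 and Adamts18, of the 43 genes to which it gave an adjusted p, and it called 2.46% of all such genes.

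Among the proteoglycanases, which cleave versican and aggrecan, the means of 4 of 7 were lower and of 3 were higher at 10% RPS. Adamts1, at chr16:85590579-85600009, had the smallest p of the 44 genes. Its level was 24.8, 7.25, 10.8, 8.96, and 11.1 CPM in the mice fed 0% RPS and 5.16, 4.18, 6.04, 6.46, and 7.35 CPM in those fed 10% RPS. The lowest mouse on 0% RPS thus overlapped with the highest on 10% RPS, and mouse 1 on 0% RPS stood far above the others. Mean levels were 12.6 (SD 7.01), 8.56 (SD 3.29), 7.18 (SD 1.94), and 5.84 CPM (SD 1.22) over the 4 diets in order of dose. Between 10 and 0% RPS it differed by a log2 fold change of -1.11 (SE 0.313), with an edgeR adjusted p of 0.0686, and without mouse 1 on 0% RPS it was -0.71, with an adjusted p of 0.172. Over the alternatives its adjusted p was between 0.0112 and 0.177.

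Adamts15, at chr9:30810451-30833863, is another protease of versican. It had 14.5, 6.93, 8.59, 13.3, and 12.6 CPM in mice fed 0% RPS and 8.61, 6.14, 7.81, 8.53, and 7.16 CPM in mice fed 10% RPS. In 3 mice on 0% RPS the level was above that of every mouse on 10% RPS, and the other 2 lay among them. For Adamts15 the log2 fold change was -0.55 (SE 0.178) with an edgeR adjusted p of 0.0995. Adamts8 lies beside Adamts15, at chr9:30853809-30875134, and went the other way. Its level was 4.10, 3.86, 6.34, 3.59, and 8.55 CPM on 0% RPS and 8.64, 7.90, 8.53, 6.74, and 7.5 CPM on 10% RPS, and mouse 5 on 0% RPS lay among the mice fed RPS. Adamts8 thus differed by 0.57 on the log2 scale (SE 0.240), with an edgeR adjusted p of 0.200. Adamts20 had at most 25 counts in a mouse, with means of 0.264 (SD 0.125) and 0.525 CPM (SD 0.162) on 0 and 10% RPS and an adjusted p of 0.207 by edgeR.

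In the other ADAMTS genes, 7 of 9 means were higher at 10% RPS. Adamts18, at chr8:114423758-114575370, had 20.5, 20.6, 19.1, 15.2, and 19.9 CPM in the mice fed 0% RPS and 35.0, 25.4, 34.4, 26.7, and 28.1 CPM in those fed 10% RPS. All mice on 10% RPS were above all mice on 0% RPS. On 2% RPS the range was from 16.8 to 32.0 CPM and on 5% RPS from 18.2 to 40.4 CPM, so that on these diets some mice had the level of 0% RPS and others more. At 10% RPS its log2 fold change was 0.65 (SE 0.206), with an edgeR adjusted p of 0.0967, and the adjusted p was between 0.0316 and 0.232 over the alternatives. Adamts19 had means of 1.95 (SD 0.632) and 3.13 CPM (SD 1.17), and its edgeR adjusted p was 0.204. The procollagen N-propeptidases Adamts2, Adamts3, and Adamts14 had log2 fold changes of 0.06, -0.19, and 0.49 at 10% RPS, none with an unadjusted p under 0.05 by edgeR.

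**Figure D2:**
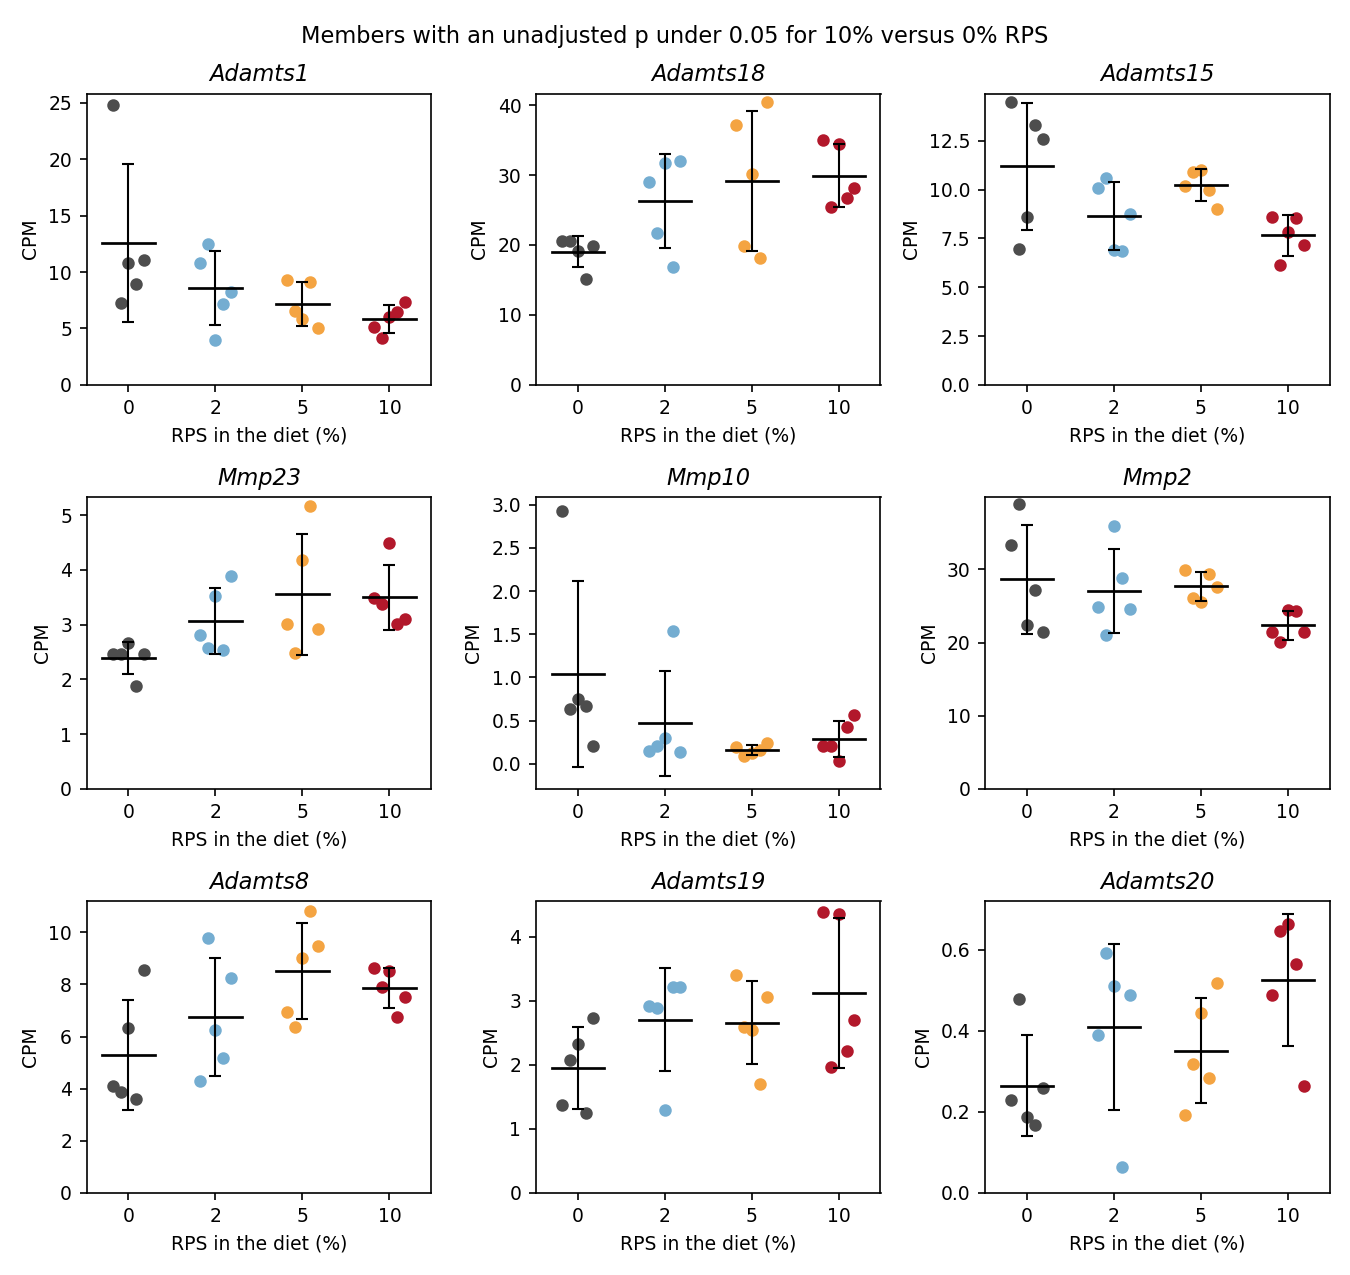
Level in CPM of the 9 genes with an unadjusted p under 0.05 for 10 versus 0% RPS, by diet, with 1 point per mouse (n = 5), the mean as a long bar, and the SD as an error bar. Adamts18 and Mmp23 show all mice on 10% RPS above all mice on 0% RPS, and Adamts1 and Mmp10 show mouse 1 on 0% RPS at 24.8 and 2.93 CPM, far above the rest.

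Mmp23, at chr4:155735111-155738378, is a transmembrane MMP that differs in structure from the other membrane-type enzymes. It had 2.47, 2.47, 2.66, 1.88, and 2.47 CPM in the mice fed 0% RPS and 3.49, 3.38, 4.49, 3.02, and 3.11 CPM in those fed 10% RPS. As with Adamts18, the diets did not overlap, and the log2 fold change was 0.55 (SE 0.196) with an edgeR adjusted p of 0.135. These were 2 of the 44 genes whose mice on 10% RPS did not overlap with those on 0% RPS, against 4.88% of all genes, and in both the higher level was on 10% RPS, against 1.68% of all genes.

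Of the gelatinases, Mmp2, at chr8:93553902-93580049, had 33.3, 38.9, 22.4, 27.2, and 21.4 CPM on 0% RPS and 21.4, 20.1, 24.5, 24.3, and 21.5 CPM on 10% RPS. Mouse 2 on 10% RPS was below all mice on 0% RPS, and the other 4 lay in the lower part of their range. The log2 fold change was -0.36 (SE 0.149) with an edgeR adjusted p of 0.194, and without mouse 2 on 0% RPS it was -0.22. Mmp9, which is known from neutrophils and macrophages and was chosen after its values were seen, had a log2 fold change of -0.08 (SE 0.283). The genes with the highest levels had small differences. Mmp15 had means of 250.0 (SD 55.5) and 214 CPM (SD 22.8) on 0 and 10% RPS and a log2 fold change of -0.22 (SE 0.165). Mmp14 had a log2 fold change of -0.04 (SE 0.114), and Timp2 one of 0.00 (SE 0.140). At these errors a change of Mmp14 or Timp2 by 1.5 times would lie more than 4 SE from the value measured. Timp1 and Timp3 had log2 fold changes of 0.13 and 0.22, and their edgeR adjusted p-values were over 0.05.

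The stromelysins Mmp3 and Mmp10 and the collagenase Mmp13 lie in a cluster on chromosome 9, with 8 of the 49 genes between positions 7272514 and 7699587. Mmp10, stromelysin 2 of epithelial cells at chr9:7502353-7510241, had 2.93, 0.637, 0.750, 0.671, and 0.201 CPM on 0% RPS and 0.209, 0.207, 0.0316, 0.424, and 0.563 CPM on 10% RPS. These levels rest on few reads, from 7 to 90 counts on 0% RPS and from 1 to 15 counts on 10% RPS. Mouse 1 on 0% RPS stood above all other mice, and on 10% RPS all mice were below 4 of the 5 mice on 0% RPS. The log2 fold change was -1.89 (SE 0.727), with an edgeR adjusted p of 0.164, and it was -1.0, with an adjusted p of 0.458, without mouse 1 on 0% RPS. In mice fed 5% RPS the level was between 0.0864 and 0.236 CPM, from 2 to 7 counts, with a log2 fold change of -2.68 (SE 0.784) and an edgeR adjusted p of 0.116. The study, which used DESeq2, lists Mmp10 among its top genes of the cecum, lower at 10% RPS with an adjusted p under 0.05. Here edgeR called it at neither dose, and DESeq2 called it at 5% but not at 10% RPS.

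Mmp3, stromelysin 1 of stromal cells, and Mmp13 were named after their values were seen. Mmp3 had 1.95 CPM in mouse 1 on 0% RPS and from 0.0574 to 0.705 CPM in the other 4, and Mmp13 had 7.06 CPM in that mouse and from 1.84 to 5.26 CPM in the other 4. Neither gene had an unadjusted p under 0.05 in any comparison, and Mmp3 had a log2 fold change of -0.04 (SE 0.664) at 10% RPS.

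The start sites of these genes were read from the GRCm39 genome because Mmp10, Mmp13, and Mmp3 shared their highest mouse. In the 100 bases before the start, on the plus strand, each holds the letters of the AP-1 motif, to which Fos and Jun proteins bind, and of a TATA box, both shown in capitals. The windows are chr9:7502253-7502352 for Mmp10, chr9:7272414-7272513 for Mmp13, and chr9:7445722-7445821 for Mmp3.
Mmp10: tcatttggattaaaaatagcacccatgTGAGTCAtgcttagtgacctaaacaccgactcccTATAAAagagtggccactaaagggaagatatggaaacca
Mmp13: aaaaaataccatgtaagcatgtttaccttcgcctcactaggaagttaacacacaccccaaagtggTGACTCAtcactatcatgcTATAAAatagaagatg
Mmp3: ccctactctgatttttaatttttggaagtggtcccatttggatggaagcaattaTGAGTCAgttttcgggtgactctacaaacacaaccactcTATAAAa
The AP-1 letters begin 73, 35, and 46 bases before the start of Mmp10, Mmp13, and Mmp3, and the TATA letters begin 39, 16, and 7 bases before it. Over windows of 200 bases, TGAGTCA or its reverse TGACTCA was found in 8 of the 49 genes (16.3%), namely Adamts3, Mmp3, Mmp7, Mmp9, Mmp10, Mmp12, Mmp13, and Mmp19, and in 2.89% of 17681 protein-coding genes. TATAAA or its reverse TTTATA was found in 10 (20.4%) and in 7.26% of all. Both motifs stood in the windows of 5 (10.2%), which were Adamts3, Mmp3, Mmp7, Mmp10, and Mmp13, and in 0.339% of all. Mmp3, Mmp7, Mmp10, Mmp12, and Mmp13 are neighbors in the cluster on chromosome 9, so these shares do not count separate loci. Adamts1, Adamts4, Adamts9, and Adamts15 had the same highest mouse as Mmp3, Mmp10, and Mmp13 but no AP-1 letters in this window. Adamts3, Mmp9, and Mmp12, which hold them, were highest in mouse 4 on 2% RPS, and Mmp19 in mouse 2 on 10% RPS. Mouse 1 on 0% RPS was the highest for 3 of the 7 tested genes with the AP-1 letters and for 4 of the 37 without them, a description of genes looked at for this pattern, with no test. The motifs do not overlap in these letters, and such a match describes the sequence and shows no binding. Of the genes for AP-1 proteins, Fos and Jun had log2 fold changes of -0.70 and -0.46 at 10% RPS and Fosl1 one of -1.23, and none passed the threshold by edgeR. They belong to a list of inducing cytokines and AP-1 genes that also held Junb. Of its 9 tested genes, 5 had a positive and 4 a negative log2 fold change at 10% RPS, with a median of 0.33.

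**Figure D3:**
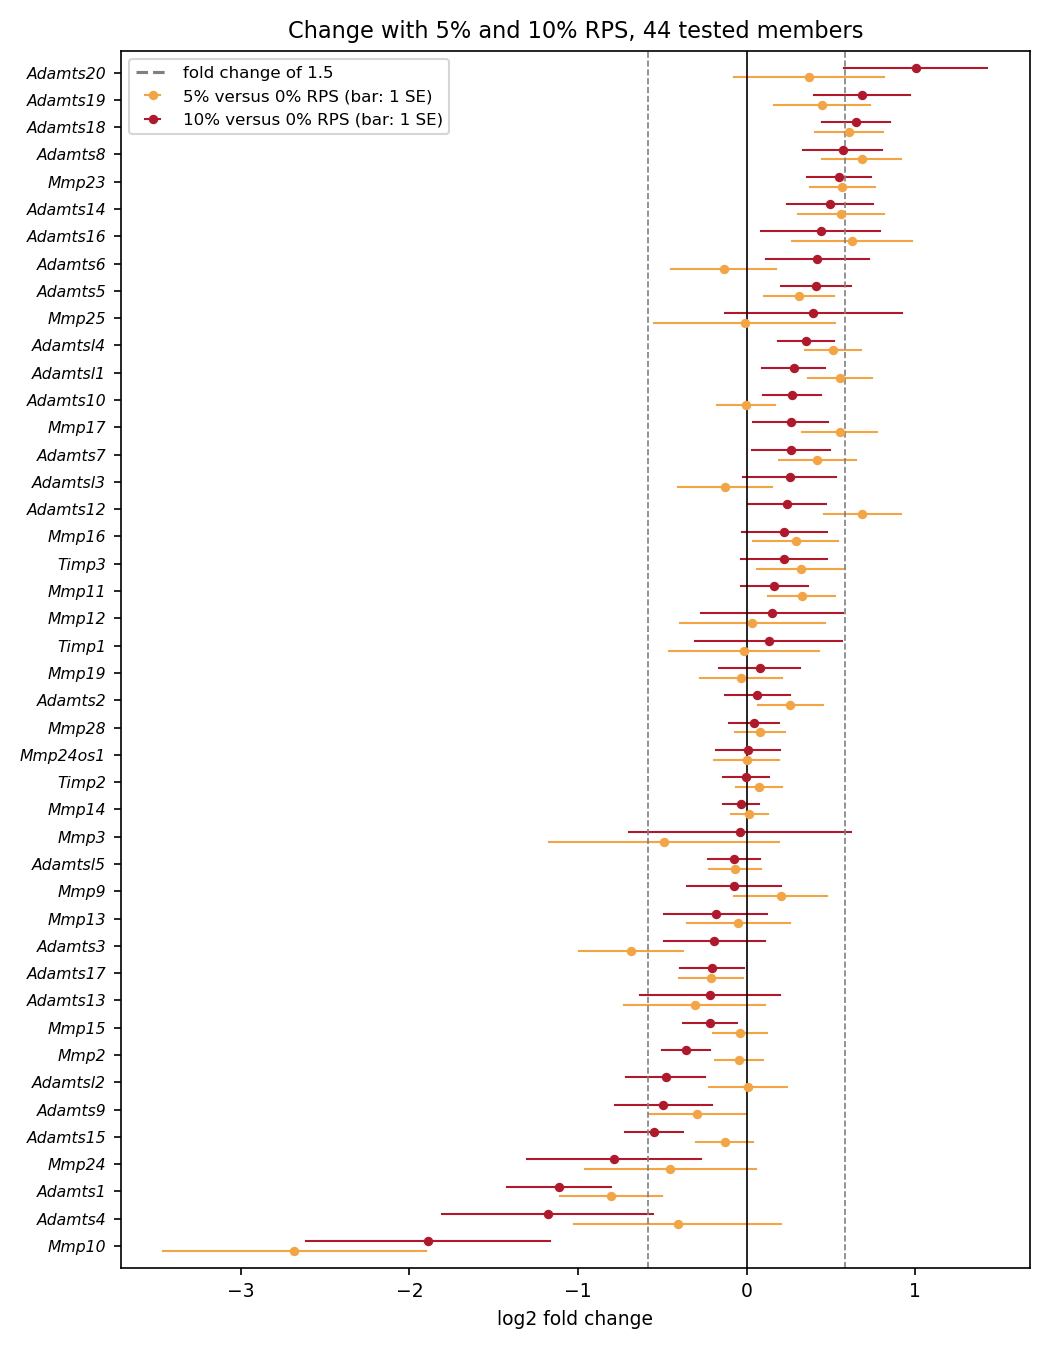
The log2 fold change of each of the 44 tested genes for 10 (red) and 5% (orange) versus 0% RPS, with 1 SE as the bar and a fold change of 1.5 as dashed lines. Both comparisons share the mice on 0% RPS. Mmp10 is farthest to the left at -1.89 and -2.68, Adamts20 farthest to the right at 10% RPS with 1.0, and Mmp14, Timp2, and Mmp24os1 lie near 0.

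At 5% RPS, 0 of the 44 genes passed the threshold by edgeR, and 0.195% of all genes did. At an unadjusted p under 0.05 there were 11 of the 44 genes (25.0%), against 13.3% of all genes. Of these, 8 had a higher and 3 a lower mean, where 6.74 and 6.54% of all genes did. In order of p they were Mmp10, Adamtsl4, Adamts18, Adamts12, Mmp23, Adamts8, Adamtsl1, Adamts1, Mmp17, Adamts3, and Adamts14, with edgeR adjusted p-values between 0.116 and 0.358. Adamtsl4, at chr3:95583509-95595231, had 20.1, 16.3, 23.4, 15.6, and 28.8 CPM on 0% RPS and 22.7, 28.3, 26.5, 38.3, and 33.1 CPM on 5% RPS. Mouse 4 on 5% RPS was the highest of all mice, and mouse 5 on 0% RPS lay among those fed RPS. Adamtsl4 differed from 0% RPS by a log2 fold change of 0.51 (SE 0.172) at 5% RPS and 0.35 (SE 0.172) at 10% RPS, with edgeR adjusted p-values of 0.172 and 0.265. Between 5 and 0% RPS no gene of the 44 had mice that did not overlap, and 3.57% of all genes did. DESeq2 called 1 gene of 47, Mmp10, and 1.41% of all genes.

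At 2% RPS, 0 of the 44 genes passed by edgeR or by DESeq2, and 0.00% of all genes did so by edgeR and 0.0270% by DESeq2. At an unadjusted p under 0.05 there were 2 (4.55%), Adamts18 with a log2 fold change of 0.46 and Adamts15 with -0.38, against 5.77% of all genes. Over the dose as a number, 0 of the 44 genes passed an adjusted p of 0.05 by edgeR and 1.11% of all genes did, while DESeq2 called 1 of 41, Adamts1, and 4.84% of all genes. Here 7 of the 44 had an unadjusted p under 0.05, against 18.8% of all genes, and these were Adamts1, Mmp10, Adamts18, Mmp23, Adamts15, Mmp2, and Adamts8. The slope of Adamts1 was -0.10 on the log2 scale per 1% RPS, with an edgeR adjusted p of 0.0732, and that of Adamts18 was 0.05, with an adjusted p of 0.169.

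Some single mice carried the high values of several genes. Mouse 1 on 0% RPS had the highest level of all 20 mice in 7 of the 44 genes (15.9%), and in 6.22% of all genes. They were Adamts1, Adamts4, Adamts9, Adamts15, Mmp3, Mmp10, and Mmp13, that is, 4 proteoglycanases and 3 MMPs of the cluster on chromosome 9. Adamts4, named after its values were seen, had 10.7 CPM in that mouse and from 1.13 to 3.93 CPM in the other 4 on 0% RPS. Beside them, the 6 neutrophil markers summed to 19.1 CPM in mouse 1 and to between 1.35 and 8.66 CPM in the other mice on 0% RPS, but 16.3 CPM of this was Ly6g, and S100a8 and S100a9 had 0.228 and 0.391 CPM. The part of neutrophils in these values was not tested. Mouse 4 on 5% RPS was the highest in 6 of the 44 genes (13.6%), which were Adamts8, Adamtsl4, Mmp14, Mmp15, Mmp17, and Mmp23, and in 9.25% of all genes. Mice 3 and 5 on 5% RPS were each the highest in 5 (11.4%), and in 4.72 and 4.79% of all genes. These were Adamts12, Adamts16, Adamtsl1, Mmp11, and Timp3 for mouse 3 and Adamts2, Adamts5, Adamts14, Adamts18, and Mmp16 for mouse 5. Without mouse 1 on 0% RPS, 5 of the 44 genes (11.4%) and not 9 had an unadjusted p under 0.05 at 10% RPS, and 17.6% of all genes did.

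**Figure D4:**
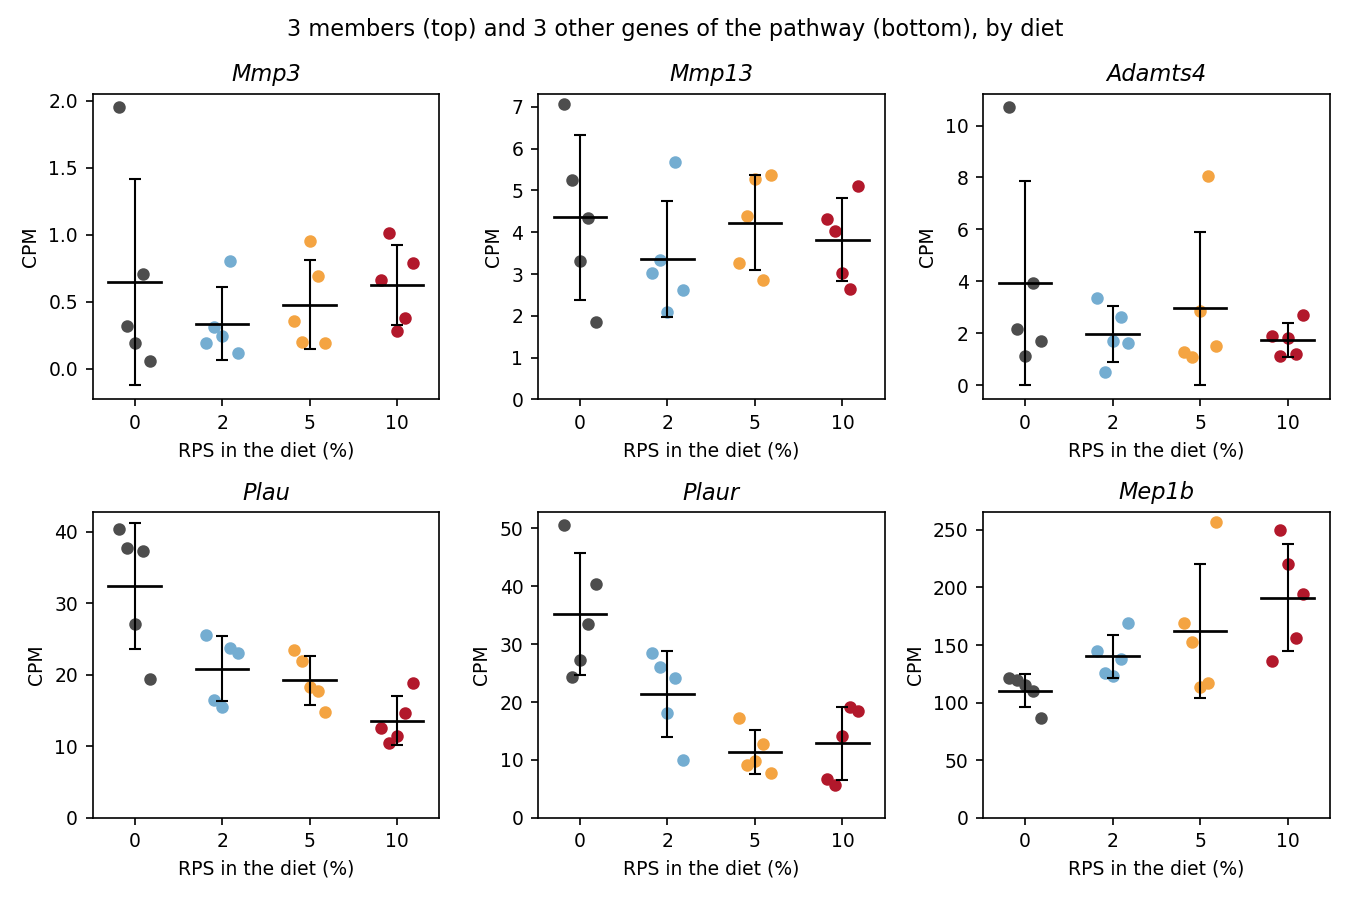
Level in CPM by diet of Mmp3, Mmp13, and Adamts4 (top) and of Plau, Plaur, and Mep1b (bottom), with 1 point per mouse, the mean as a long bar, and the SD as an error bar (n = 5). In the top row mouse 1 on 0% RPS is the highest point, and in the bottom row the mice on 10% RPS do not overlap with those on 0% RPS.

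Another set of these genes varied with the level of smooth muscle markers. Smooth muscle markers (Myh11, Acta2, Actg2, Des, Cnn1, and Tagln) summed to 3480 (SD 1280), 4270 (SD 1010), 6360 (SD 2250), and 5420 CPM (SD 1100) on 0, 2, 5, and 10% RPS, and mouse 4 on 5% RPS had the highest level at 9680 CPM. The log2 difference between 10 and 0% RPS was 0.68 (two-sided exact permutation test, p = 0.0397), which over the 13 marker lists gave an adjusted p of 0.155. Fibroblast markers had means of 534 and 715 CPM (exact p = 0.0317, adjusted p = 0.155). Mesothelial markers had means of 3.08 and 10.4 CPM and a log2 difference of 1.73, and adipocyte markers means of 89.4 and 47.6 CPM and a log2 difference of -1.16 (exact p = 0.0476 and adjusted p = 0.155 for each). Of the 4 mesothelial markers, Msln had means of 2.32 and 9.69 CPM, and Upk3b, Lrrn4, and Wt1 had means of 0.436, 0.0781, and 0.237 CPM on 0% RPS and 0.468, 0.0825, and 0.189 CPM on 10% RPS. No marker list passed the adjustment between 10 and 0% RPS, the comparison in which the lists were tested. By edgeR, 4 of the 6 smooth muscle markers had an unadjusted p under 0.05 at 10% RPS and 6 of 6 at 5% RPS, all higher. Actg2, an actin of enteric smooth muscle, rose at both doses, with log2 fold changes of 1.28 (SE 0.300) at 10% and 1.53 (SE 0.302) at 5% RPS and edgeR adjusted p-values of 0.0358 and 0.0425.

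Across the 20 mice, with each diet's mean removed, the level of 28 of the 44 genes correlated positively with the smooth muscle level, and 6 passed after adjustment over the 44 by a permutation test. The positive share was 63.6% of the 44 genes and 47.7% of the 15348 genes. An r of at least 0.59, the lowest among the 6 genes that passed, was found in 7 of the 44 (15.9%) and in 6.04% of all genes. For Mmp17, an MMP anchored by a lipid and chosen after its values were seen, r was 0.87 and rho 0.86 (permutation p = 2e-05, adjusted p = 0.000293), and r was 0.81 without the 2 mice farthest from the median. Adamtsl4 had an r of 0.86 and a rho of 0.86 (0.79 without those mice), and Adamts8 an r of 0.86 and a rho of 0.88 (0.81 without them). Their adjusted permutation p for r was 0.000293 for both, and the raw p of Adamts8 was the smallest that 100000 permutations can give. Adamtsl1, Timp2, and Timp3 had r of 0.64, 0.67, and 0.59 (adjusted permutation p of 0.00814, 0.0353, and 0.0447), and that of Timp2 was 0.44 without the 2 mice. Their rho was 0.71, 0.56, and 0.55 (adjusted permutation p of 0.00814, 0.123, and 0.123), so that Timp2 and Timp3 did not pass on ranks and 4 of the 6 genes did. No gene had a negative correlation that passed.

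**Figure D5:**
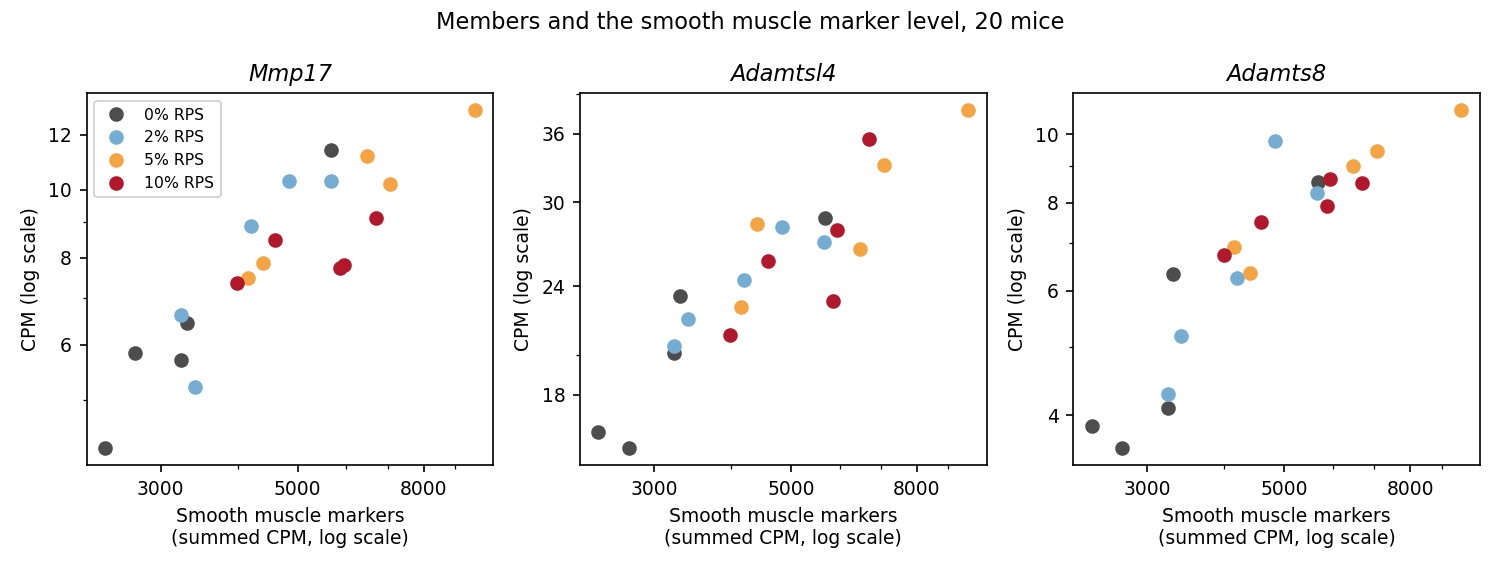
Level in CPM of Mmp17, Adamtsl4, and Adamts8 against the summed CPM of 6 smooth muscle markers, both on a log scale, with 1 point per mouse colored by diet. The 3 genes are higher in mice with more smooth muscle RNA within and across the diets, and the mouse on 5% RPS with 9680 CPM is the farthest to the right.

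With the smooth muscle level as a covariate, chosen after seeing the data, the log2 fold change of Adamts8 at 10% RPS was 0.06 and not 0.57, that of Adamtsl4 was -0.04 and not 0.35, and that of Mmp23 was 0.21 and not 0.55. Adamts1 at -1.11, Adamts15 at -0.61, and Adamts18 at 0.60 were close to their values without it. Mmp10 was at -0.85 in this fit, and that of Mmp15 was -0.47 with an edgeR adjusted p of 0.133. Of the 44 genes, 5 (11.4%) then had an unadjusted p under 0.05 at 10% RPS, against 21.0% of all genes, and 2 (4.55%) at 5% RPS, against 9.93% of all genes, and 0 passed the threshold. With this covariate 0 of all genes passed too.

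Other genes of the same pathway were taken from lists of activators, inhibitors, related proteases, substrates, and inducers, of which 50 were tested and 3 were called at 10% RPS, where 1.04% of all genes were called. An unadjusted p under 0.05 was found in 32.0% of these 50 genes and in 19.5% of all genes. The lists were chosen with earlier results of these data known, so these shares are a description and no test of the pathway. Plau, the urokinase that makes plasmin and so activates MMP proenzymes, fell at 10% RPS. Its level was 40.3, 37.7, 27.1, 37.3, and 19.4 CPM on 0% RPS and 12.6, 10.4, 11.4, 14.7, and 18.9 CPM on 10% RPS. All mice on 10% RPS were below all on 0% RPS, though mouse 5 on 0% RPS was close to mouse 5 on 10% RPS. The log2 fold change was -1.26 (SE 0.204), with an edgeR adjusted p of 0.00818, and -0.85 with an adjusted p of 0.0809 with the smooth muscle covariate. Plaur, the receptor of Plau, had means of 35.2 (SD 10.6) and 12.8 CPM (SD 6.34), with a log2 fold change of -1.46 (SE 0.346) and an edgeR adjusted p of 0.0376. In the list of activators and the plasmin system, 2 of 9 genes fell and 0 rose, 8 of 9 log2 fold changes were negative, and the median was -0.30 where that of all genes was 0.00.

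Mep1b, a meprin subunit of the brush border of enterocytes, rose from a mean of 110 (SD 14.1) to 191 CPM (SD 46.3), with a log2 fold change of 0.79 (SE 0.194) and an edgeR adjusted p of 0.0407. It was the 1 called gene of the 9 tested ADAM proteases and meprins, whose median log2 fold change was 0.11. Leaving out single mice on 0 or 10% RPS ended the call of Plaur in 7 of 10 fits and that of Mep1b in 8, with adjusted p-values of up to 0.113 and 0.118, but ended that of Plau in none. Among other inhibitors and regulators 0 of 11 genes passed by edgeR, and 3 (27.3%) had an unadjusted p under 0.05, against 19.5% of all genes. Sdc1, an epithelial heparan sulfate proteoglycan of this list, was lower by a log2 fold change of -0.55, with an adjusted p of 0.0376, but did not reach a fold change of 1.5. Of 12 matrix substrates 0 passed by edgeR, and 3 (25.0%) had an unadjusted p under 0.05, a share near that of all genes. Their log2 fold changes were positive in 11, and the median was 0.26, with Fn1 at 0.90, Col1a1 at 0.68, and Col3a1 at 0.58. Of 9 cytokines and AP-1 genes 0 passed by edgeR, and 4 (44.4%) had an unadjusted p under 0.05, of which 2 were higher and 2 lower. Tnf was at 1.34 (edgeR adjusted p of 0.234), while Fosl1, as given above, was lower.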

How the data were processed

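RNASeq of the cecum was taken from 20 mice. The authors deposited raw read counts per gene, for which stranded poly(A) libraries were read from one end and the reads were mapped to GRCm39 with the CLC Genomics Workbench. The annotation release, the strand setting, and the handling of multi-mapped reads are not given in the sources used here. The labels gave each mouse's diet, and mice are numbered 1 to 5 within a diet only to name them. Pairs of mice of the same diet differed by a chi-square of 13.6 to 140 per degree of freedom, so none was a duplicate.

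The test was edgeR 4.0.16 in R 4.3.3 (filterByExpr at 10 counts and 15 in total, TMM, robust glmQLFit, glmQLFTest) on all 20 mice, with Benjamini-Hochberg adjustment over 15348 genes. Genes with an adjusted p of at most 0.05 and a fold change of at least 1.5 were called, and the trend over dose had no fold threshold. The study used DESeq2, which was an alternative here (version 1.42.0). RPKM and coordinates came from GENCODE release M39, in which 19827 gene identifiers were found and 60 were not. Marker lists were compared by two-sided exact permutation over 252 assignments, in which the smallest p is 0.00794, and correlations by 100000 permutations within diets. Promoters were the 200 bases before the canonical start in GRCm39.

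In data simulated on 15348 genes for 10% versus 0% RPS, edgeR called 74 of 100 genes with a 2-fold and 97 of 100 with a 4-fold change, besides 7 genes that were not changed. The same genes were given smaller changes at 5 and 2% RPS. Of them edgeR called 12 and 69 for 5% RPS, and 0 and 0 for 2% RPS. These counts at the lower doses thus do not give the recovery of 2-fold or 4-fold changes. The floor of 3 counts covers counting error only, since reads carry no molecular identifiers.

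The members and lists were chosen with earlier results of these data known. Named with values were genes past the threshold in any comparison, genes with an unadjusted p under 0.05 for 10% versus 0% RPS, the 10 highest by mean RPKM, Timp1 to Timp4, and 6 that the study lists for the cecum. Genes outside this rule are named where a count is broken down, or are said to be chosen after their values were seen. As alternatives, DESeq2's Wald test, its size factors, no filter, a fit of only the diets compared, no fold threshold, the rank of the dose, a smooth muscle covariate added later, and each mouse left out were run.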

Additional observations from a re-analysis of the deposited data

Results flagged for a closer look

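Of 72 groups of 5 mice (18 named genes in 4 diets), 11 held a mouse whose gap to its nearest neighbor was over 0.71 of the group's range, and chance alone gives about 1 in 20. On 0% RPS, mouse 1 had 24.8 CPM of Adamts1, with the others between 7.25 and 11.1 CPM, and 2.93 CPM of Mmp10, with the others between 0.201 and 0.750 CPM. Mouse 4 on 0% RPS was the lowest for Adamts18 at 15.2 CPM (others 19.1 to 20.6) and for Mmp23 at 1.88 CPM (others 2.47 to 2.66), the pair of genes whose mice did not overlap between 10 and 0% RPS. Mouse 5 on 0% RPS had 11.2 CPM of Mmp24os1 (others 4.98 to 6.71).

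On 2% RPS, mouse 3 had the lowest Adamts19 at 1.29 CPM (others 2.89 to 3.21) and the highest Mmp15 at 312 CPM (others 185 to 217), and mouse 4 had 1.54 CPM of Mmp10 (others 0.140 to 0.300). On 5% RPS, mouse 4, which had the most smooth muscle RNA, was the highest for Mmp15 at 350.0 CPM (others 202 to 236) and for Mmp24os1 at 9.82 CPM (others 5.73 to 6.60). On 10% RPS, mouse 4 had 0.471 CPM of Timp4, from 10 counts, and the others had at most 0.0316 CPM. No cause of these values was tested.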

How the results depend on the processing

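No gene named here changed its direction past a threshold. At 10% RPS, where edgeR called 0 of the 44 genes, DESeq2's Wald test called 2 (Adamts1 and Adamts18; 2.46% of all genes), the fit of only the 2 diets compared called 1 (Adamts18; 0.658% of all), and with single mice left out the count was 0 to 2, with Adamts1 and Adamts15 called without mouse 2 on 0% RPS (2.23% of all). At 5% RPS DESeq2 called 1 (Mmp10; 1.41% of all) and leaving out mice gave 0, and at 2% RPS every alternative gave 0. For the trend DESeq2 called 1 (4.84% of all) and the rank of the dose called 1 (3.51% of all), both Adamts1, and leaving out mice gave 0 to 1, with Adamts1 called without mouse 3 on 2% RPS (4.37% of all). The cause of these differences was not tested. The number of the 44 genes with an unadjusted p under 0.05, which was 9, 11, 2, and 7 for 10, 5, and 2% RPS and the trend, was 5 to 13, 7 to 10, 0 to 8, and 4 to 10 with single mice left out, and 5, 2, 1, and 4 with the smooth muscle covariate. Adamtsl4 turned from 0.35 to -0.04 at 10% RPS under that covariate, and neither value passed. The smooth muscle difference between 10 and 0% RPS was between 0.57 and 0.87 with single mice left out (exact p between 0.0159 and 0.0794), and in 7 of these 10 fits p was over 0.05, where fewer mice also raise the smallest p. DESeq2's size factors, no filter, and no fold threshold left the counts at 0. No paired analysis was possible because the mouse numbers differ between diets. Depth limits genes such as Mmp10 and Mmp3, with a few counts in some mice. The simulated data cannot compare power between doses at an equal fold change, since their changes were smaller at the lower doses.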
